A study of Homo sapiens with 18 samples.

Results

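The 7 genes described here encode secreted signals and a signal-induced matrix protein: the activin subunit INHBA, the ligands TGFB2 and BMP2, the follistatin-like proteins FSTL1 and FSTL5, the WNT ligand WNT5A, and TGFBI, which was named for its induction by TGF-beta. They were selected on their log2 signals in these same arrays, compared between the groups, so their values are a description and carry no test. All probe sets annotated to them were taken, 12 of the 23416 on the array table, for 7 of 11232 genes with a probe set of their own. INHBA had 3 probe sets, TGFB2, BMP2 and WNT5A had 2 each, and TGFBI, FSTL1 and FSTL5 had 1 each. No probe set was shared with another gene (0), and all 12 passed the filter of log2 4 or more in at least 3 arrays. FSTL5 reached log2 4 in 6 of the 17 arrays, 5 of C32 and 1 of A375M2 GFP.

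RNA of 2 human melanoma cell lines was hybridised to 18 Affymetrix arrays, 3 in each of 6 groups, and signals are given on the log2 scale. All groups carried lentiviral vectors. A375M2, a metastatic derivative of the melanoma line A375 (the tag for cell line reads A375), carried GFP, PMEL, shFHL2 or shNFYA. C32 carried GFP or shFHL2. PMEL is the melanosome fibril protein, expressed at full length with a histidine tag from a CMV promoter, followed by an IRES and eGFP. FHL2, a LIM-domain cofactor, was targeted in A375M2 with a pool of 3 short hairpin RNA (shRNA) constructs, and no number of constructs was found for C32. NFYA belongs to NF-Y, the factor that binds CCAAT boxes. The vectors for PMEL were selected with blasticidin and those for FHL2 with puromycin, and the cells with the brightest GFP were sorted by flow cytometry, so these arms are selected, sorted populations. The labels leave unsaid which GFP vector the GFP arrays hold, and they name no arm with a non-targeting hairpin. For A375M2 GFP, PMEL and shFHL2, 15 days of selection, 80% confluence and 3 separate experiments are described. No such detail was found for C32 or for shNFYA, so p-values there may measure only technical spread. All groups share a common estimate of the spread, so the spread of those arrays also enters the p-values of the other comparisons.

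Ligands of the TGF-beta family bind paired serine-threonine kinase receptors at the cell surface. TGF-beta and activin receptors then phosphorylate one class of SMAD proteins and BMP receptors another, and follistatin and related secreted proteins hold ligands away from their receptors. Melanoma cells commonly secrete TGF-beta and activin, and WNT5A, which acts through frizzled and ROR receptors mostly without beta-catenin, is known in melanoma for its link to motility and invasion.

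The windows upstream of 3 of the genes are shown because these genes carry the main patterns: TGFB2 and FSTL1 were lower in every arm with shFHL2, PMEL or shNFYA, and INHBA differed most between the lines. Each window is the 250 bases before the annotated start, 5′ to 3′ on the gene's own strand, from RefSeq (GRCh38.p14); 6 of the 7 genes had an entry, and BMP2 had none. TGFB2 lies on the plus strand, with its window at chr1:218345086-218345335. INHBA lies on the minus strand, at chr7:41703091-41703340, and FSTL1 on the minus strand, at chr3:120450993-120451242. Capitals mark matches to any of 6 motifs, which were searched for on both strands. The box that NF-Y binds was searched for as CCAAT. The short element known as the SMAD box was searched for as CAGAC. The site of the AP-1 factors was searched for as TGANTCA, where N stands for any base. The site of the TEAD factors was searched for as CATTCC. The palindromic form of the E box was searched for as CACGTG, and the TATA box, which positions the start, as TATAAA.
TGFB2: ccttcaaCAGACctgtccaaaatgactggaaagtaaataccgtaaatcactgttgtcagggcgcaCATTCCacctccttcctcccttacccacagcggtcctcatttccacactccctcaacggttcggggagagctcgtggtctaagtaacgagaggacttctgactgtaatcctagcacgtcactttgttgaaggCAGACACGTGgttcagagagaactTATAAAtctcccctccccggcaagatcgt
INHBA: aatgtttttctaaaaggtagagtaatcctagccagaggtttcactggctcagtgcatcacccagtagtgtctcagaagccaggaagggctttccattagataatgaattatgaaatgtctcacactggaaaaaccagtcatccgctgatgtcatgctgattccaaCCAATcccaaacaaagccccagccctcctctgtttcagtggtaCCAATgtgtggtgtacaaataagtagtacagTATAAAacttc
FSTL1: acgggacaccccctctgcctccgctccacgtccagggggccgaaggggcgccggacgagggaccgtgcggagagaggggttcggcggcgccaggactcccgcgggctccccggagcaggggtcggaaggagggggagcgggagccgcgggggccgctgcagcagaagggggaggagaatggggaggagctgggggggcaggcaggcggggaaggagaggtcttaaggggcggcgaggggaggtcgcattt

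The TGFB2 window held CAGAC at 243 and 53 bases before the start, CATTCC at 185, CACGTG at 49 (sharing 1 base with the nearer CAGAC) and TATAAA at 29. The INHBA window held CCAAT at 85 and 42 bases before the start and TATAAA at 11. The FSTL1 window held no match to these 6 motifs (0), as did those of TGFBI, FSTL5 and both starts of WNT5A. Of 35116 upstream windows of this length, 32% held the CCAAT box, 38% the SMAD box, 6.57% the AP-1 site, 11.9% the TEAD site, 6.34% the E box and 10.7% the TATA box. The FSTL1 window was 74.4% G and C and the TGFBI window 72.8%, against 42.8% for INHBA, 50.4% for TGFB2 and a median of 58% over all windows. A match is a string of letters and not a measured site.

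The arrays and labels were checked first. FHL2 fell by 4.04 in A375M2 shFHL2 and fell by 5.24 in C32 shFHL2 (log2; limma adjusted p = 1.61e-14 and 2.53e-14), PMEL rose by 3.38 in the PMEL arm (adjusted p = 1.58e-12), and NFYA fell by 2.07 in shNFYA (adjusted p = 4.3e-13); the NFYA difference in A375M2 shFHL2 was -0.73 (adjusted p = 1.04e-06). Replicate 3 of C32 GFP differed from the average of the other C32 GFP arrays with an SD of only 0.00718 over 15473 probe sets (0.102 to 0.155 for the remaining arrays) and was left out, so C32 GFP has 2 arrays. Replicate 3 of A375M2 GFP and replicate 3 of A375M2 PMEL, added together, equalled the summed means of their replicates 1 and 2 with an SD of 0.00631, against 0.15 to 0.231 for other pairs of arrays; without both, the counts of calls given below moved by less than 1.5 times. Arrays of A375M2 GFP correlated with those of PMEL at 0.99 to 0.992, with shFHL2 at 0.893 to 0.896 and with shNFYA at 0.865 to 0.868, while shFHL2 and shNFYA correlated at 0.971 to 0.972 and the C32 groups at 0.975. At least 16-fold differences between group means were found for 294 genes between A375M2 GFP and shFHL2, for 18 between shFHL2 and shNFYA and for 2 between GFP and PMEL. In the comparisons with GFP, loss of either target cannot be told apart from anything else that sets the A375M2 shRNA arms apart from the GFP arrays. Arrays 1 and 2 of A375M2 GFP shared 536 to 541 equal values with arrays 1 and 2 of PMEL. Both shared 0 with any shFHL2, shNFYA or C32 array. The A375M2 shFHL2 arrays shared 306 to 315 with shNFYA and 42 with arrays 1 and 2 of C32 GFP. This split runs along the comparisons of the A375M2 shRNA arms with GFP and of the lines, and its part in them was not tested. Of 10 melanocyte markers, 9 were on the table. MITF, SOX10 and S100B read 8.95 or more in every group, and MLANA was under log2 4 in all A375M2 groups (2.18 to 2.38) but read 14.00 in C32 GFP and 12.25 in C32 shFHL2. MITF, the regulator of the pigment cell lineage, averaged 14.24 in A375M2 GFP but 10.05 in shFHL2 and 8.95 in shNFYA. The pigment genes were also lower there: TYRP1 averaged 9.24 in GFP, 3.76 in shFHL2 and 4.60 in shNFYA, TYR 4.44, 2.68 and 2.37, and PMEL 5.57, 3.35 and 3.25. S100B averaged 13.33, 11.46 and 10.02 in the same order, and S100A1 10.03, 8.14 and 8.52. SOX10 changed little (12.76, 12.33 and 12.73), and CSPG4 was higher in both shRNA arms (11.56, 12.41 and 11.66). In C32, TYRP1 averaged 11.81 in GFP and 5.19 in shFHL2, and PMEL 7.61 and 4.08. The other markers differed less there: MITF averaged 14.96 and 14.20, SOX10 12.88 and 11.79, TYR 13.48 and 12.54, S100B 14.20 and 13.31, CSPG4 10.63 and 9.96, and S100A1 8.83 and 8.88.

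Among the ligands, INHBA and BMP2 were high in A375M2 and at the lowest readings in C32, while TGFB2 had overlapping levels in the GFP cells of both lines and was lower in every other arm. INHBA encodes the beta A subunit, which pairs with itself to form activin A. Its brightest probe set, 227140_at, read 14.65, 14.75 and 14.61 in A375M2 GFP, 14.27, 14.25 and 14.35 in PMEL, 15.11, 15.08 and 15.09 in shFHL2 and 14.77, 14.69 and 14.66 in shNFYA. In C32 it read 2.15 and 2.76 in GFP and 2.10, 2.15 and 2.10 in shFHL2. Every A375M2 array was high and every C32 array was under log2 4. Within A375M2 the order was shFHL2, then shNFYA and GFP, whose arrays overlapped, then PMEL, and shFHL2 and PMEL did not overlap any other group. The difference from GFP was 0.43 in shFHL2, -0.38 in PMEL and 0.04 in shNFYA on the log2 scale, and C32 GFP lay -12.21 from A375M2 GFP. The other 2 INHBA probe sets also had PMEL lowest of the A375M2 groups, at -0.70 (204926_at) and -0.56 (210511_s_at) from GFP. Their readings ranged from 6.83 to 8.66 at 204926_at and from 12.64 to 13.60 at 210511_s_at over the A375M2 arrays, and in C32 every array was under log2 4 at both. At 204926_at shNFYA stood 0.82 above GFP, and at 210511_s_at 0.17, where the brightest probe set had 0.04. In C32 the difference of -0.34 between shFHL2 and GFP lies among readings under log2 4 and becomes 0 when values under log2 4 are set to 4. It was -0.03 without array 2 of C32 GFP, and the other probe sets gave -0.05 (204926_at) and 0.03 (210511_s_at).

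TGFB2 encodes a TGF-beta ligand that is secreted in a latent form. Probe set 228121_at read 8.69, 8.49 and 8.73 in A375M2 GFP, 7.30, 7.45 and 7.23 in PMEL, 4.0, 3.92 and 3.76 in shFHL2 and 4.10, 3.65 and 3.95 in shNFYA. In C32 it read 8.79 and 8.70 in GFP and 6.76, 6.68 and 6.54 in shFHL2. The GFP arrays of both lines overlapped at the top of the order, followed by A375M2 PMEL and C32 shFHL2, which overlapped no group, and then by the A375M2 shRNA arms, which overlapped each other. Against GFP, the difference was -4.74 in A375M2 shFHL2 (a 26.7-fold lower mean), -4.73 in shNFYA, -1.31 in PMEL (2.48-fold lower) and -2.09 in C32 shFHL2 (4.25-fold lower), and C32 GFP lay 0.11 from A375M2 GFP. The second probe set, 209909_s_at, read 7.57, 7.64 and 7.48 in A375M2 GFP, 5.17, 5.51 and 5.46 in PMEL and 2.61 in all 6 arrays of the A375M2 shRNA arms. It read 7.51 and 7.68 in C32 GFP and 5.73, 6.07 and 5.65 in C32 shFHL2. Here C32 shFHL2 stood above A375M2 PMEL, the other way round from 228121_at, the PMEL difference was larger, at -2.19, and the 6 equal readings have no order among them. With values under log2 4 set to 4, the shFHL2 and shNFYA differences at 228121_at were -4.64 and -4.60.

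BMP2 encodes a bone morphogenetic protein. Probe set 205289_at read 9.28, 9.45 and 9.40 in A375M2 GFP, 9.54, 9.64 and 9.55 in PMEL, 10.30, 10.54 and 10.50 in shFHL2 and 11.74, 11.67 and 11.65 in shNFYA, and 2.63 in all 5 arrays of C32. The A375M2 groups stood in that ascending order without overlap, and C32 was at its lowest reading in both groups. The difference from GFP was 0.20 in PMEL, 1.07 in shFHL2 (2.11-fold) and 2.31 in shNFYA (4.96-fold), and shFHL2 lay -1.24 from shNFYA. At the second probe set, 205290_s_at, the same differences were 0.24, 0.57 and 1.78, and -1.21 between the shRNA arms, so the order of groups was the same with a smaller shFHL2 difference. C32 GFP lay -6.75 from A375M2 GFP at 205289_at and -6.84 at 205290_s_at.

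TGFBI, a secreted matrix protein that binds integrins and collagens, was high in all A375M2 groups and low in C32. Its probe set read 13.54, 13.35 and 13.39 in A375M2 GFP, 13.66, 13.66 and 13.72 in PMEL, 13.34, 13.37 and 13.40 in shFHL2 and 13.45, 13.45 and 13.51 in shNFYA. In C32 it read 3.28 and 3.07 in GFP and 5.20, 4.24 and 5.32 in shFHL2. PMEL was highest without overlap, GFP overlapped both shRNA arms, and the C32 groups did not overlap each other. The difference from A375M2 GFP was 0.26 in PMEL, -0.06 in shFHL2 and 0.04 in shNFYA. Centring each array on its median, which shifted the median of all genes by 0.10 in shFHL2 and 0.11 in shNFYA, made these last differences 0.05 and 0.15, and quantile normalization made the shNFYA difference -0.04, so neither has a settled direction. In C32 shFHL2 the difference from GFP was 1.75; it was 0.92 with values under log2 4 set to 4, since both C32 GFP arrays lay under that level. C32 GFP lay -10.25 from A375M2 GFP. Over all arrays of A375M2, TGFBI readings ran from 13.34 to 13.72, while those of TGFB2 at 228121_at ran from 3.65 to 8.73.

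FSTL1, a secreted glycoprotein with a follistatin domain that binds BMP and other family ligands, was lower than in GFP in every arm of both lines. It read 9.65, 9.98 and 9.90 in A375M2 GFP, 8.33, 8.46 and 8.32 in PMEL, 6.06, 5.72 and 5.96 in shFHL2 and 6.02, 5.31 and 5.45 in shNFYA. In C32 it read 8.04 and 8.06 in GFP and 2.26, 2.26 and 2.61 in shFHL2. The order was A375M2 GFP, A375M2 PMEL, C32 GFP, then the A375M2 shRNA arms, which overlapped each other, and C32 shFHL2 last; no other neighbours overlapped. The differences from GFP were -3.93 in A375M2 shFHL2 (15.2-fold lower), -4.25 in shNFYA (19-fold), -1.47 in PMEL (2.78-fold) and -5.68 in C32 shFHL2. With values under log2 4 set to 4 the C32 difference was -4.05. The shFHL2 difference in C32 minus that in A375M2, -1.75 as deposited, then became -0.12, so its size rests on readings under that level.

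FSTL5, a secreted protein with follistatin-like and calcium-binding domains, was the member with its highest level in C32 shFHL2, where it read 9.85, 9.88 and 9.83. It read 5.71 and 5.88 in C32 GFP, 3.92, 4.45 and 3.61 in A375M2 GFP, 1.88, 1.88 and 2.41 in PMEL and 2.26 in all 6 arrays of the A375M2 shRNA arms. The order was C32 shFHL2, C32 GFP and A375M2 GFP, none overlapping, and then the other A375M2 arms, which overlapped or were equal. C32 shFHL2 lay 4.06 above C32 GFP (16.7-fold). In A375M2 the differences from GFP were -1.73 in shFHL2 and shNFYA and -1.94 in PMEL, but with values under log2 4 set to 4 each was -0.15, so these differences lie among readings near or under that level.

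WNT5A was higher than in GFP in the shRNA arms of both lines and lower with PMEL. Probe set 205990_s_at read 11.38, 11.48 and 11.49 in A375M2 GFP, 10.25, 10.44 and 10.29 in PMEL, 11.89, 11.95 and 12.00 in shFHL2 and 12.20, 12.11 and 11.93 in shNFYA. In C32 it read 5.31 and 4.83 in GFP and 7.26, 7.45 and 7.20 in shFHL2. The A375M2 shRNA arms overlapped each other at the top, followed by A375M2 GFP, PMEL, C32 shFHL2 and C32 GFP, with no overlap between these. The second probe set, 213425_at, read 10.57, 10.59 and 10.50 in A375M2 GFP, 9.55, 9.54 and 9.62 in PMEL, 11.52, 11.53 and 11.63 in shFHL2 and 11.42, 11.33 and 11.18 in shNFYA. It read 3.22 and 3.81 in C32 GFP and 6.28, 6.37 and 6.51 in C32 shFHL2. Both probe sets thus had PMEL below GFP and the shRNA arms above GFP in each line, without overlap. The differences from GFP, at 205990_s_at and then at 213425_at, were 0.50 and 1.01 in A375M2 shFHL2, 0.63 and 0.76 in shNFYA, -1.12 and -0.98 in PMEL, and 2.24 and 2.88 in C32 shFHL2. Between shFHL2 and shNFYA the sign depended on the probe set (-0.13 with overlap, and 0.25 without).

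**Figure D1:**
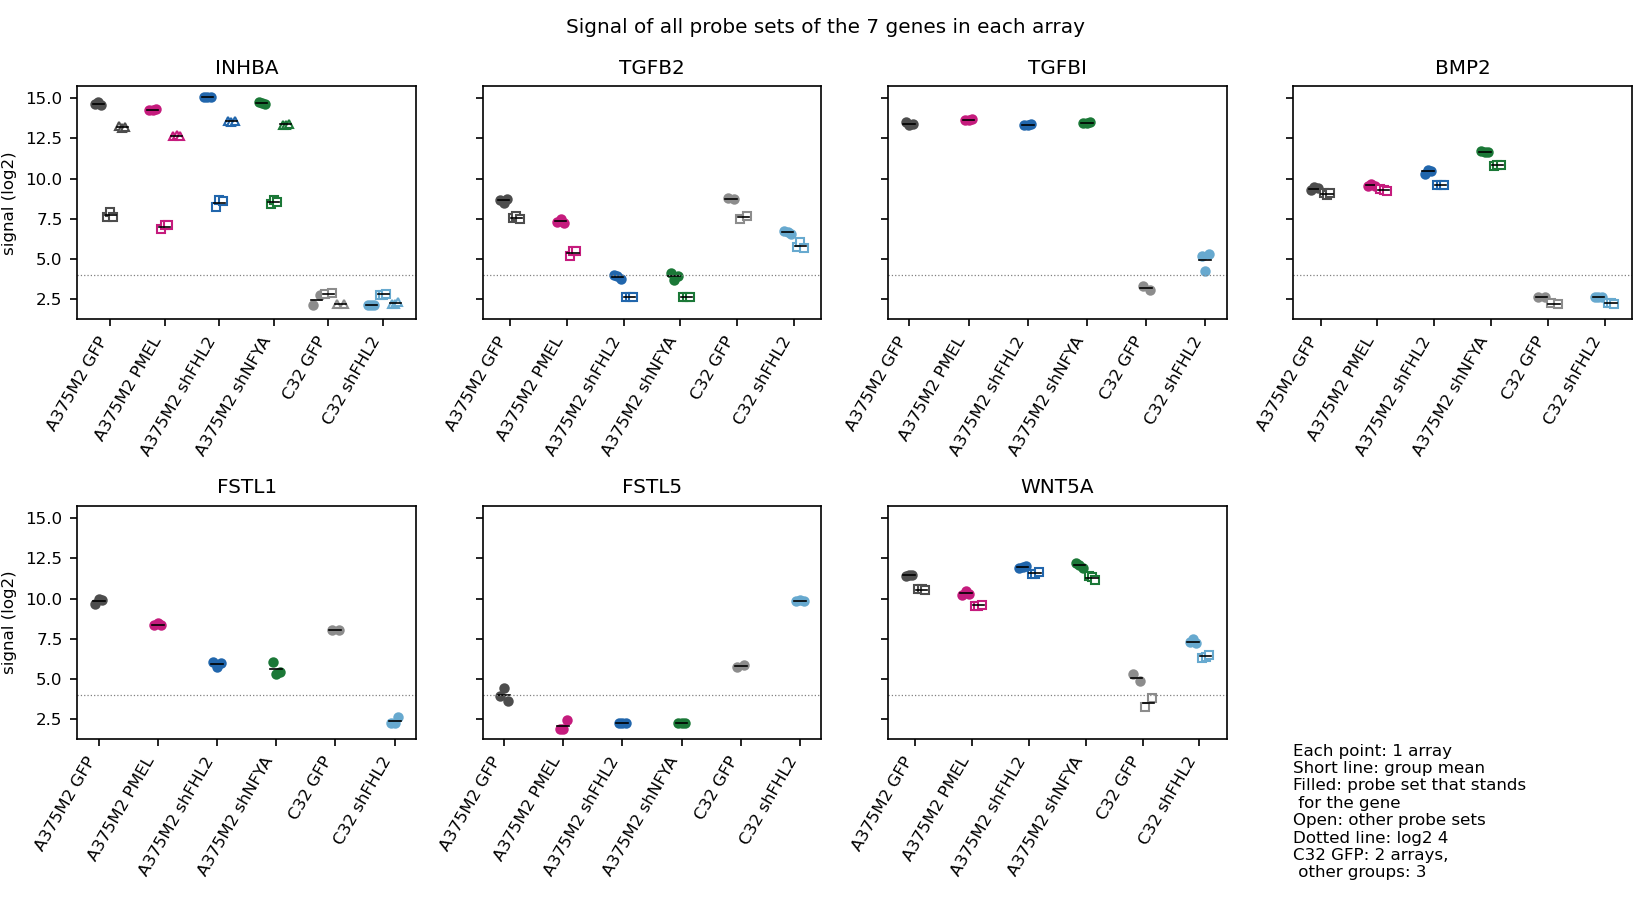
Log2 signal (vertical axis) of each of the 12 probe sets in each array, by group (horizontal axis), with 1 panel per gene; filled points mark the probe set that stands for the gene, open points the others, short lines the group means and the dotted line log2 4. INHBA, BMP2 and TGFBI are high in all A375M2 groups and at 5.32 or lower in C32, TGFB2 has a mean of 8.64 in A375M2 GFP and 3.90 in both A375M2 shRNA arms, and FSTL5 is highest in C32 shFHL2, at 9.85.

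Set side by side, the comparisons with GFP differed in which members were higher or lower. The fit over 10918 genes (limma, with p-values adjusted by the Benjamini-Hochberg method over all genes, called under 0.05) called most genes in most comparisons, and since the 7 genes were selected on these contrasts nothing is read from their own counts. In A375M2 shFHL2 against GFP it called 41.2% of all genes higher and 44.2% lower, and of the 7 genes 3 were called higher (BMP2, INHBA and WNT5A) and 3 lower (FSTL1, FSTL5 and TGFB2). In shNFYA against GFP it called 43.6% higher and 43.2% lower, with BMP2 and WNT5A among the higher and FSTL1, FSTL5 and TGFB2 among the lower. In PMEL against GFP it called 22.1% higher and 17.8% lower; BMP2 was called higher and FSTL1, FSTL5, INHBA, TGFB2 and WNT5A were called lower, 5 of the 7. In C32 shFHL2 against GFP it called 32.3% higher and 30.2% lower, with FSTL5, TGFBI and WNT5A among the higher and FSTL1, INHBA and TGFB2 among the lower. The comparisons of A375M2 arms with GFP share the same 3 GFP arrays, so their likeness is not separate evidence.

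FSTL1 and TGFB2 were lower and WNT5A higher in shFHL2 than in GFP in both lines, while FSTL5 was lower in A375M2 and higher in C32. For the shFHL2 difference in C32 minus that in A375M2, the fit called 42.1% of all genes higher and 38.1% lower; the values were 5.79 for FSTL5, 2.65 for TGFB2, 1.81 for TGFBI, 1.74 for WNT5A, -0.77 for INHBA, -1.07 for BMP2 and -1.75 for FSTL1. With values under log2 4 set to 4, FSTL5 was at 4.21, TGFBI at 0.98 and INHBA at -0.43, and FSTL1 was at -0.12 as given above. BMP2 has no measurable C32 side, since all 5 arrays gave 2.63. The poly-A spike-in controls averaged 9.37 ± 0.28 in GFP arrays of C32 (SD, n = 2) but 5.96 ± 0.04 with shFHL2 (SD, n = 3); the part of this difference in the C32 results was not tested.

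Between the shRNA arms of A375M2, which do not involve the GFP arrays, the fit called 31.8% of all genes higher in shFHL2 and 38.4% lower. INHBA was called higher (0.39) and BMP2 lower (-1.24), and FSTL1, FSTL5, TGFB2, TGFBI and WNT5A were not called. The genes were selected on these same arrays, so neither a call nor its absence is a test of them, and nothing is read from it. The INHBA difference was -0.03 and 0.18 at its other probe sets. FSTL5 and the second TGFB2 probe set had equal readings in both arms. Between the lines, the fit called 38.5% of genes higher in C32 GFP and 47.4% lower. FSTL5 was called higher (1.80) and BMP2, FSTL1, INHBA, TGFBI and WNT5A lower, from -1.79 for FSTL1 to -12.21 for INHBA. For the same reason nothing is read from the calls of these genes between the lines, and their differences are a description.

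**Figure D2:**
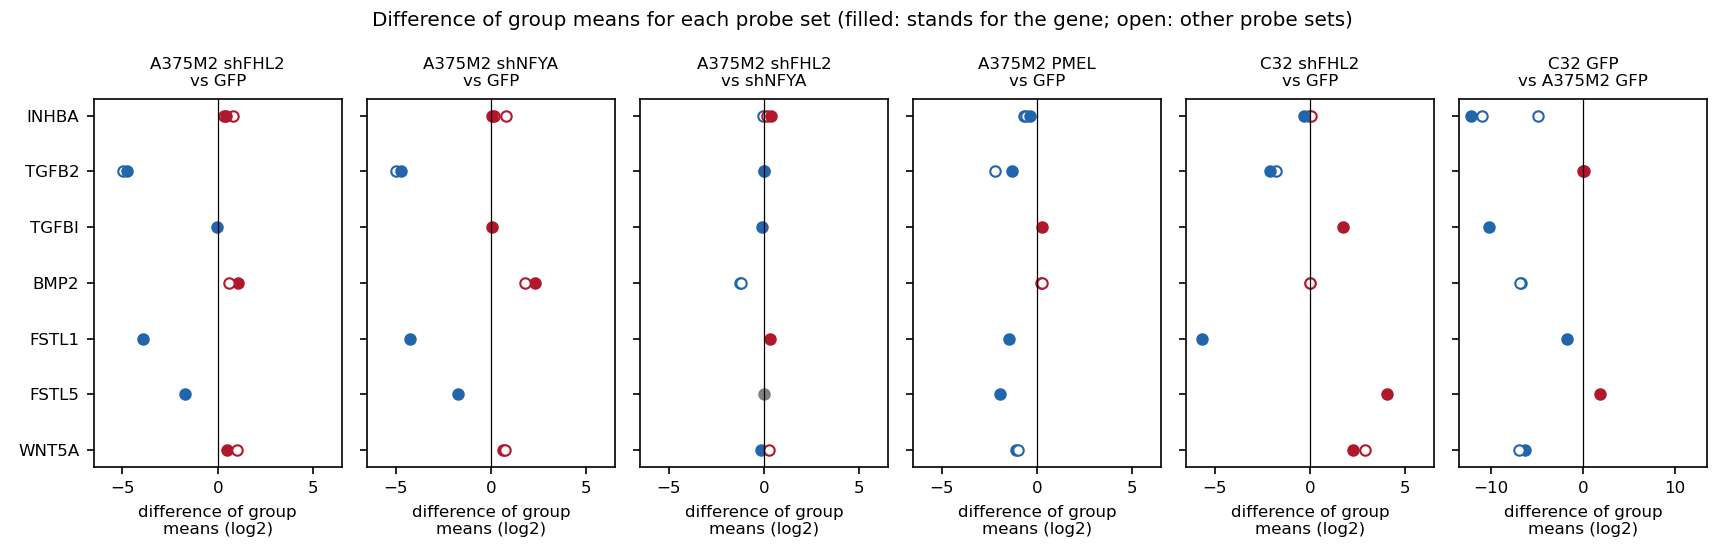
Difference of group means on the log2 scale (horizontal axis; the last panel has a wider range) for each probe set of the 7 genes (rows) in 6 comparisons (panels); filled points stand for the gene, open points are other probe sets, red is higher in the first group, blue lower and grey equal. TGFB2 and FSTL1 lie to the left in all 4 comparisons of an arm with the GFP arrays of its line, and WNT5A lies to the left with PMEL (-1.12) and to the right with shFHL2 (0.50 in A375M2 and 2.24 in C32).

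Markers of cell type and measures of the arrays also differed between groups, though not always in the same direction in both lines. The summed log2 level of the 9 melanocyte markers was 83.5 to 83.7 in A375M2 GFP, 85.0 to 85.5 in PMEL, 66.1 to 66.7 in shFHL2 and 63.8 to 64.7 in shNFYA, and 108.2 to 108.6 in C32 GFP against 92.0 to 92.4 in C32 shFHL2. That sum includes PMEL, the gene introduced in the PMEL arm; over the other 8 markers it was 77.7 to 78.1 in A375M2 GFP, 76.1 to 76.5 in PMEL, 62.9 to 63.1 in shFHL2 and 60.6 to 61.4 in shNFYA, and 100.6 to 100.9 in C32 GFP against 87.9 to 88.4 in C32 shFHL2. The sum of 6 fibroblast markers was 40.9 to 41.2 in A375M2 GFP, 36.1 to 36.4 in PMEL, 30.2 to 30.4 in shFHL2 and 30.6 to 31.3 in shNFYA. In C32 it was 37.6 to 38.6 in GFP and 38.2 to 38.6 in shFHL2. DCN was under log2 4 in every group. In A375M2 GFP, LUM, FAP and PDGFRA averaged 11.11, 8.93 and 8.09, and COL1A1 and COL1A2 averaged 5.77 and 3.92. COL1A1 was higher in the A375M2 shRNA arms, at 7.05 in shFHL2 and 6.78 in shNFYA, unlike the sum. In C32 GFP and shFHL2, COL1A2 averaged 11.91 and 12.46, FAP 9.71 and 10.06, and LUM 2.56 and 2.40. The sum of 4 epithelial markers was 25.9 to 26.2 in A375M2 GFP, 25.9 to 26.3 in PMEL, 30.9 to 31.2 in shFHL2 and 32.3 to 33.2 in shNFYA, and all 4 were under log2 4 in both C32 groups. Of the 2 leukocyte markers on the table, LYZ read 3.74 in A375M2 GFP and 9.45 and 9.40 in the shRNA arms, and PTPRC read 2.27, 2.16 and 2.16 there but 8.63 in C32 GFP and 7.80 in C32 shFHL2. KDR, the 1 endothelial marker on the table, read 6.83, 5.56, 7.58 and 5.86 in A375M2 GFP, PMEL, shFHL2 and shNFYA, and 10.18 and 7.83 in C32 GFP and shFHL2. The 18S probe sets read 12.52 in A375M2 GFP, 11.08 in PMEL, 14.18 in shFHL2 and 14.19 in shNFYA. The 3′ minus the 5′ reading of actin, a measure of RNA integrity and labelling, was 0.61 ± 0.13 in A375M2 GFP, 0.74 ± 0.08 in PMEL, 1.07 ± 0.08 in shFHL2 and 1.19 ± 0.08 in shNFYA (SD, n = 3). In C32 it was 1.08 ± 0.02 in GFP (SD, n = 2) and 0.87 ± 0.04 in shFHL2 (SD, n = 3). The part of these markers and controls in the results for the 7 genes was not tested, and in bulk RNA fewer cells with a transcript and less transcript per cell cannot be told apart.

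The other genes of the pathways were read from 7 lists of 161 genes in all, of which 99 were tested, without the 7 genes themselves. The lists were written with results of these data on other genes known, so the split of directions below is a description. In the shRNA arms of both lines more of these genes were called lower than higher when set against GFP, also with median centring or quantile normalization. In A375M2 shFHL2, 35 pathway genes were called higher and 53 lower, with a median of -0.29 against -0.03 for all genes (log2), where 41.2% of all genes were called higher and 44.2% lower. In shNFYA 32 were higher and 55 lower (median -0.40 against 0.00), where 43.6% of all genes were higher and 43.2% lower. In PMEL 32 were higher and 28 lower (median 0.01 against 0.02), where 22.1% of all genes were higher and 17.8% lower. In C32 shFHL2 15 were higher and 52 lower, with a median of -0.21 against 0.00, where the fit called 32.3% of all genes higher and 30.2% lower. The shFHL2 effects of the lines differed at 78 of the 99 genes, 32 with a higher value in C32 and 46 with a lower one (median -0.14 against 0.06 for all genes), where 42.1% of all genes were higher and 38.1% lower. C32 GFP was higher than A375M2 GFP at 39 and lower at 50 (median -0.17 against -0.11), where 38.5% of all genes were higher and 47.4% lower. The counts of single lists below stand against these same shares of all genes in each comparison. Single lists hold only 8 to 19 tested genes each, and no list was tested as a set.

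**Figure D3:**
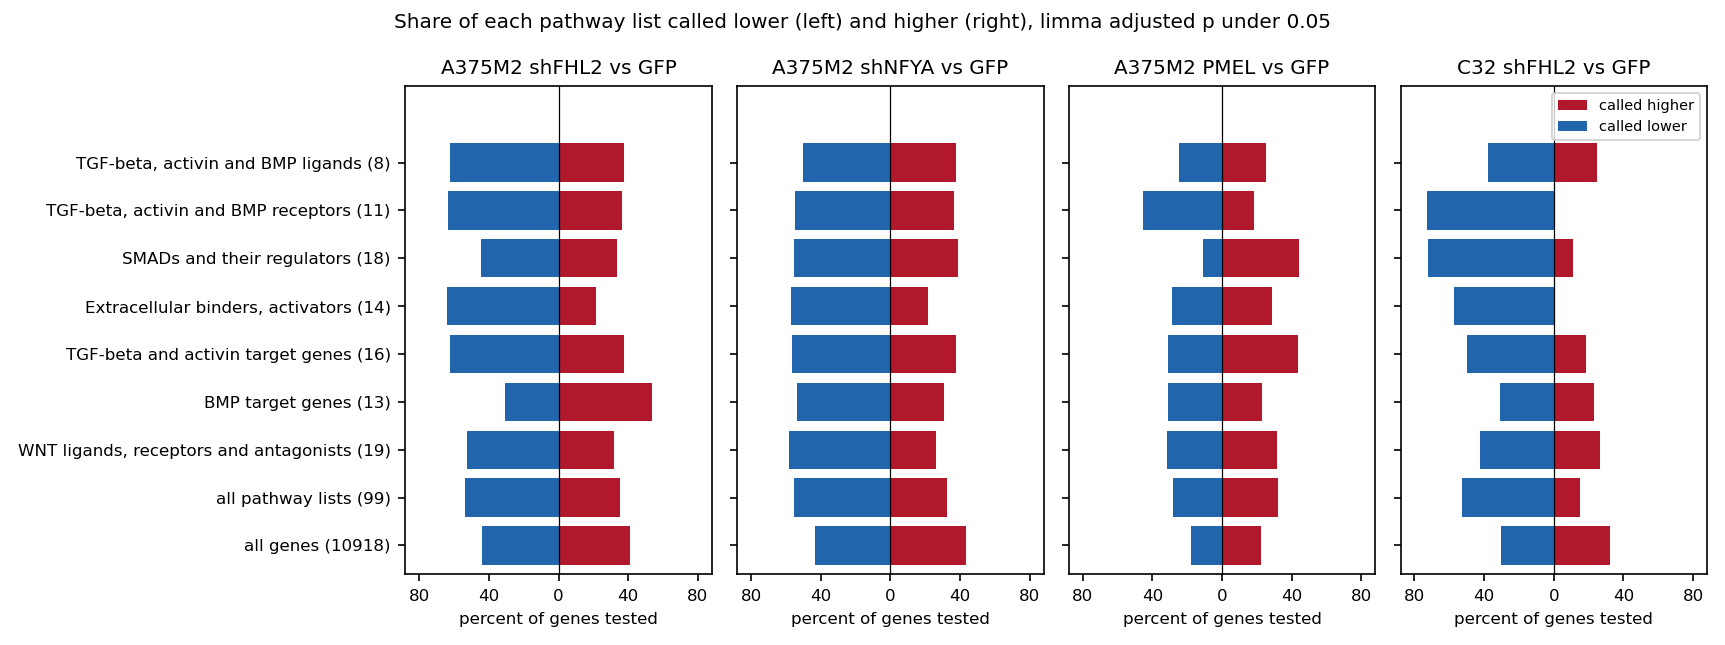
Share of the tested genes of each list (rows, number tested in brackets) called lower (bars to the left) and higher (bars to the right) in 4 comparisons (panels), in percent, with all genes in the last row. In C32 shFHL2 the receptors and the extracellular binders have no bar to the right (0 of 11 and 0 of 14 called higher), while all genes have 32.3%.

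Among the ligands of A375M2 shFHL2, 3 of 8 were called higher and 5 lower. INHBE, the activin beta E subunit, rose by 5.71 from its lowest reading (2.21 to 7.92, SE 0.12, limma adjusted p = 9.19e-18), or by 3.92 with values under log2 4 set to 4. GDF15, a stress-induced distant family member, fell from 14.55 ± 0.03 to 10.56 ± 0.01 (SD, n = 3, log2 difference -3.99, limma adjusted p = 3.04e-24). GDF15 also fell by 4.68 in shNFYA (adjusted p = 2.05e-25). BMP6, a BMP ligand, rose by 5.34 in shNFYA, from 5.70 ± 0.15 to 11.04 ± 0.02 (adjusted p = 5.99e-19); in shFHL2 it stood at 9.04 ± 0.12, a difference of -2.01 from shNFYA (adjusted p = 4.04e-12). With PMEL, TGFB1 fell by 1.49 (from 6.92 ± 0.21 to 5.43 ± 0.17, adjusted p = 5.24e-05) and BMP6 fell by 0.78 (adjusted p = 5.45e-06), with 2 ligands called higher and 2 lower of 8. In C32 shFHL2, TGFB3 fell by 1.02 (from 7.55 to 6.53, adjusted p = 5.69e-07) and TGFB1 rose by 2.15 (adjusted p = 7.99e-07), or by 1.36 with values under log2 4 set to 4; 2 ligands were called higher and 3 lower. TGFB3 was at 7.55 in C32 GFP and 3.75 in A375M2 GFP (3.81 higher, adjusted p = 1.18e-15), and GDF15 was 1.39 higher in C32 GFP (adjusted p = 2.64e-18).

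Of 11 receptors, 4 were called higher and 7 lower in A375M2 shFHL2, 4 and 6 in shNFYA, 2 and 5 in PMEL, and 0 and 8 in C32 shFHL2, where the median difference was -0.63. BMPR1B, a type I BMP receptor, fell by 3.94 in A375M2 shFHL2 (from 8.03 ± 0.04 to 4.09 ± 0.11, adjusted p = 3.74e-17), fell by 4.46 in shNFYA (adjusted p = 4.29e-18) and fell by 1.76 in C32 shFHL2 (from 5.81 to 4.05, adjusted p = 9.37e-11). TGFBR1, the type I TGF-beta receptor, rose by 1.66 in A375M2 shFHL2 (adjusted p = 2.25e-15) and was 3.80 higher in C32 GFP than in A375M2 GFP (adjusted p = 5.7e-20). TGFBR2, its type II partner, fell by 0.42 with PMEL (adjusted p = 3.38e-06) and fell by 0.71 in C32 shFHL2 (adjusted p = 3.7e-09). ACVR2B, a type II activin receptor, rose by 0.58 with PMEL (adjusted p = 1.29e-05). NEO1, a receptor of netrins and co-receptor for BMP signalling, rose by 2.75 in shNFYA from the equal reading of 4.03 that all A375M2 GFP arrays gave (adjusted p = 1.71e-15), and was at 7.97 in C32 GFP (3.95 above A375M2 GFP, adjusted p = 4.57e-17). Between the A375M2 shRNA arms, ACVR1 was 0.56 higher and ACVR2A lower, at -0.86, in shFHL2 (adjusted p = 1.34e-07 and 2.99e-06), and ACVR2A was at -0.56 as the mean of its probe sets.

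Of 18 SMADs and their regulators, 6 were called higher and 8 lower in A375M2 shFHL2, 7 and 10 in shNFYA, 8 and 2 in PMEL, and 2 and 13 in C32 shFHL2. BAMBI, a decoy receptor without kinase activity, fell by 2.10 in A375M2 shFHL2 (from 13.1 ± 0.05 to 11.01 ± 0.03, adjusted p = 5.23e-19) and fell by 2.30 in shNFYA (adjusted p = 8.48e-20). SMAD5, which relays BMP signals, fell by 1.49 in shFHL2 and fell by 3.04 in shNFYA (adjusted p = 9.3e-17 and 4.04e-21), but its probe sets disagreed in size: the mean over them gave -0.27 and -0.74. Its rise of 0.24 with PMEL (adjusted p = 6.38e-05) was 0.04 by that mean (adjusted p = 0.541), and its 1.56 between shFHL2 and shNFYA (adjusted p = 6.06e-16) was 0.47. SMAD6, an inhibitory SMAD, rose by 0.51 with PMEL (adjusted p = 3.64e-05). In C32, SMAD9, another SMAD of the BMP branch, had a mean of 7.65 ± 0.06 in GFP (SD, n = 2) and 2.73 ± 0.64 in shFHL2 (SD, n = 3). It so fell by 4.91 (adjusted p = 4.19e-12), or by 3.65 with values under log2 4 set to 4. PMEPA1, a TGF-beta-induced inhibitor of the pathway, fell by 1.29 in C32 shFHL2 (adjusted p = 7.75e-11), or fell by 2.37 at its most variable probe set. PMEPA1 was 13.85 ± 0.06 in A375M2 GFP and 7.60 ± 0.12 in C32 GFP (-6.25, adjusted p = 1.92e-21). ZEB1, a SMAD-binding repressor, was also lower in C32 GFP (-2.67, adjusted p = 2.02e-19), and was 0.60 higher in shFHL2 than in shNFYA (adjusted p = 3.1e-10).

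Of 14 extracellular binders and activators, 3 were called higher and 9 lower in A375M2 shFHL2, 3 and 8 in shNFYA, 4 and 4 in PMEL, and 0 and 8 in C32 shFHL2. Follistatin (FST), which binds activins, rose by 3.59 in A375M2 shFHL2, from 10.49 ± 0.17 to 14.08 ± 0.09 (SD, n = 3; adjusted p = 1.81e-17), and fell by 1.17 with PMEL to 9.32 ± 0.09 (adjusted p = 4.41e-09). In shNFYA it stood at 10.43 ± 0.09, so that shFHL2 was 3.65 above shNFYA (adjusted p = 1.72e-16), and in C32 it was 9.46 in GFP and 9.28 in shFHL2. FST and INHBA, the binder and the ligand subunit, both had their highest A375M2 mean in shFHL2 (INHBA at its brightest probe set) and their lowest in PMEL. NBL1, a BMP antagonist of the DAN family, fell by 1.66 in A375M2 shFHL2, fell by 1.07 in shNFYA and fell by 1.93 in C32 shFHL2 (adjusted p = 7.85e-16, 3.16e-13 and 5.96e-15). Fibrillin-1 (FBN1), which tethers latent ligand complexes, rose by 0.76 with PMEL (adjusted p = 5.99e-08), fell by 3.31 in shNFYA and fell by 1.41 in C32 shFHL2 (adjusted p = 1.78e-18 and 1.53e-11; -5.21 and -3.17 at its most variable probe set), and was 2.19 higher in shFHL2 than in shNFYA (adjusted p = 6.36e-15). In C32 GFP the BMP antagonist CHRDL1 was at its lowest reading, 2.35, against 10.4 ± 0.05 in A375M2 GFP (adjusted p = 2.27e-23), and thrombospondin-1 (THBS1), an activator of latent TGF-beta, was 6.58 ± 0.04 against 13.31 ± 0.23 (adjusted p = 2.44e-16).

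Of 16 TGF-beta and activin target genes, 6 were called higher and 10 lower in A375M2 shFHL2, 6 and 9 in shNFYA, 7 and 5 in PMEL, and 3 and 8 in C32 shFHL2. IL11, a cytokine of the interleukin-6 family, rose by 7.78 in shFHL2 and 8.31 in shNFYA (adjusted p = 2.04e-19 and 4.78e-20) from a reading of 2.21 in GFP; as the mean of its probe sets the shFHL2 value was 4.98. COL5A1, a chain of collagen V, rose by 4.94 in shFHL2 (adjusted p = 4.39e-17), or by 3.15 with values under log2 4 set to 4. SNAI2, a repressor of epithelial genes, fell by 3.48 in shNFYA (adjusted p = 8.64e-20). CCN2, also called connective tissue growth factor, fell by 1.90 with PMEL, from 11.73 ± 0.06 to 9.83 ± 0.08 (SD, n = 3; adjusted p = 2.56e-13), the smallest adjusted p of the list in that comparison. Fibronectin (FN1) rose by 0.54 with PMEL (adjusted p = 1.77e-07) and was 2.09 higher in shFHL2 than in shNFYA (adjusted p = 6.31e-16), but its most variable probe set gave 0 in both comparisons (adjusted p = 1). It was 15.86 ± 0.05 in C32 GFP and 11.02 ± 0.09 in A375M2 GFP (adjusted p = 1.26e-21). COL4A1, a chain of collagen IV, fell by 2.60 in C32 shFHL2 (from 7.83 to 5.24, adjusted p = 1.66e-15), and BHLHE40, a transcriptional repressor, fell by 1.07 (adjusted p = 8.31e-12); COL4A1 was lower in C32 GFP than in A375M2 GFP (-4.79, adjusted p = 1.39e-20). NEDD9, a docking protein, was 1.96 higher in shFHL2 than in shNFYA (adjusted p = 1.04e-13).

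Of 13 BMP target genes, 7 were called higher and 4 lower in A375M2 shFHL2, 4 and 7 in shNFYA, 3 and 4 in PMEL, and 3 and 4 in C32 shFHL2. Between the shRNA arms 9 were higher in shFHL2 and 3 lower, with a median of 0.73, where 31.8% of all genes were higher and 38.4% lower. HEY1, a repressor also induced by Notch, fell by 3.32 in shFHL2 and fell by 5.22 in shNFYA (adjusted p = 8.61e-19 and 1.57e-21), and was 1.91 higher in shFHL2 than in shNFYA (adjusted p = 1.31e-14). MSX1, a homeobox factor, rose by 2.45 and 3.47 (adjusted p = 9.38e-16 and 4.6e-18). ID3, an inhibitor of basic helix-loop-helix factors, rose by 0.43 with PMEL (adjusted p = 1.89e-07), fell by 0.86 in C32 shFHL2 (adjusted p = 1.69e-11) and was 0.73 higher in shFHL2 than in shNFYA (adjusted p = 2.38e-11). DLX2, a homeobox factor, fell by 0.65 with PMEL (adjusted p = 2.25e-07), and GATA3, a zinc finger factor, rose by 1.30 in C32 shFHL2 (adjusted p = 2.89e-06). ID1, a common readout of BMP signalling, was 13.49 ± 0.06 in A375M2 GFP and 7.72 ± 0.04 in C32 GFP, where BMP2 was at its lowest reading (ID1 difference -5.78, adjusted p = 2.62e-24). DLX2 was lower there as well (-3.76, adjusted p = 7.29e-19). Of the 13 BMP target genes, however, 7 were called higher and 5 lower in C32 GFP than in A375M2 GFP, with a median of 0.49. Of all genes, 38.5% were called higher and 47.4% lower in that comparison. A link of these levels to BMP2 was not tested.

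Of 19 WNT ligands, receptors and antagonists, 6 were called higher and 10 lower in A375M2 shFHL2, 5 and 11 in shNFYA, 6 and 6 in PMEL, and 5 and 8 in C32 shFHL2. DKK2, which binds WNT co-receptors, rose by 5.16 in shFHL2 and 6.54 in shNFYA from a reading of 2.21 (adjusted p = 2.35e-18 and 5.9e-20); the shFHL2 value was 3.36 with values under log2 4 set to 4. FZD4, a frizzled receptor, fell by 2.96 in shFHL2 (adjusted p = 8.06e-15), and LEF1, a transcription factor of the beta-catenin branch, fell by 2.71 in shNFYA (adjusted p = 4.25e-19) and rose by 0.69 in C32 shFHL2 (adjusted p = 3.35e-09). With PMEL the secreted antagonists SFRP1 and DKK3 fell, with differences of -0.88 and -0.85 (adjusted p = 4.43e-12 and 1.91e-05), and DKK3 was at -0.53 as the mean of its probe sets. SFRP1 also fell by 0.54 in C32 shFHL2 (adjusted p = 1.78e-09). Both were lower in C32 GFP than in A375M2 GFP, with differences of -1.95 for SFRP1 and -6.10 for DKK3 (adjusted p = 3.67e-18 and 6.9e-18). SFRP1 and LEF1 were 1.35 and 1.51 higher in shFHL2 than in shNFYA (adjusted p = 1.92e-15 and 1.54e-14).

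**Figure D4:**
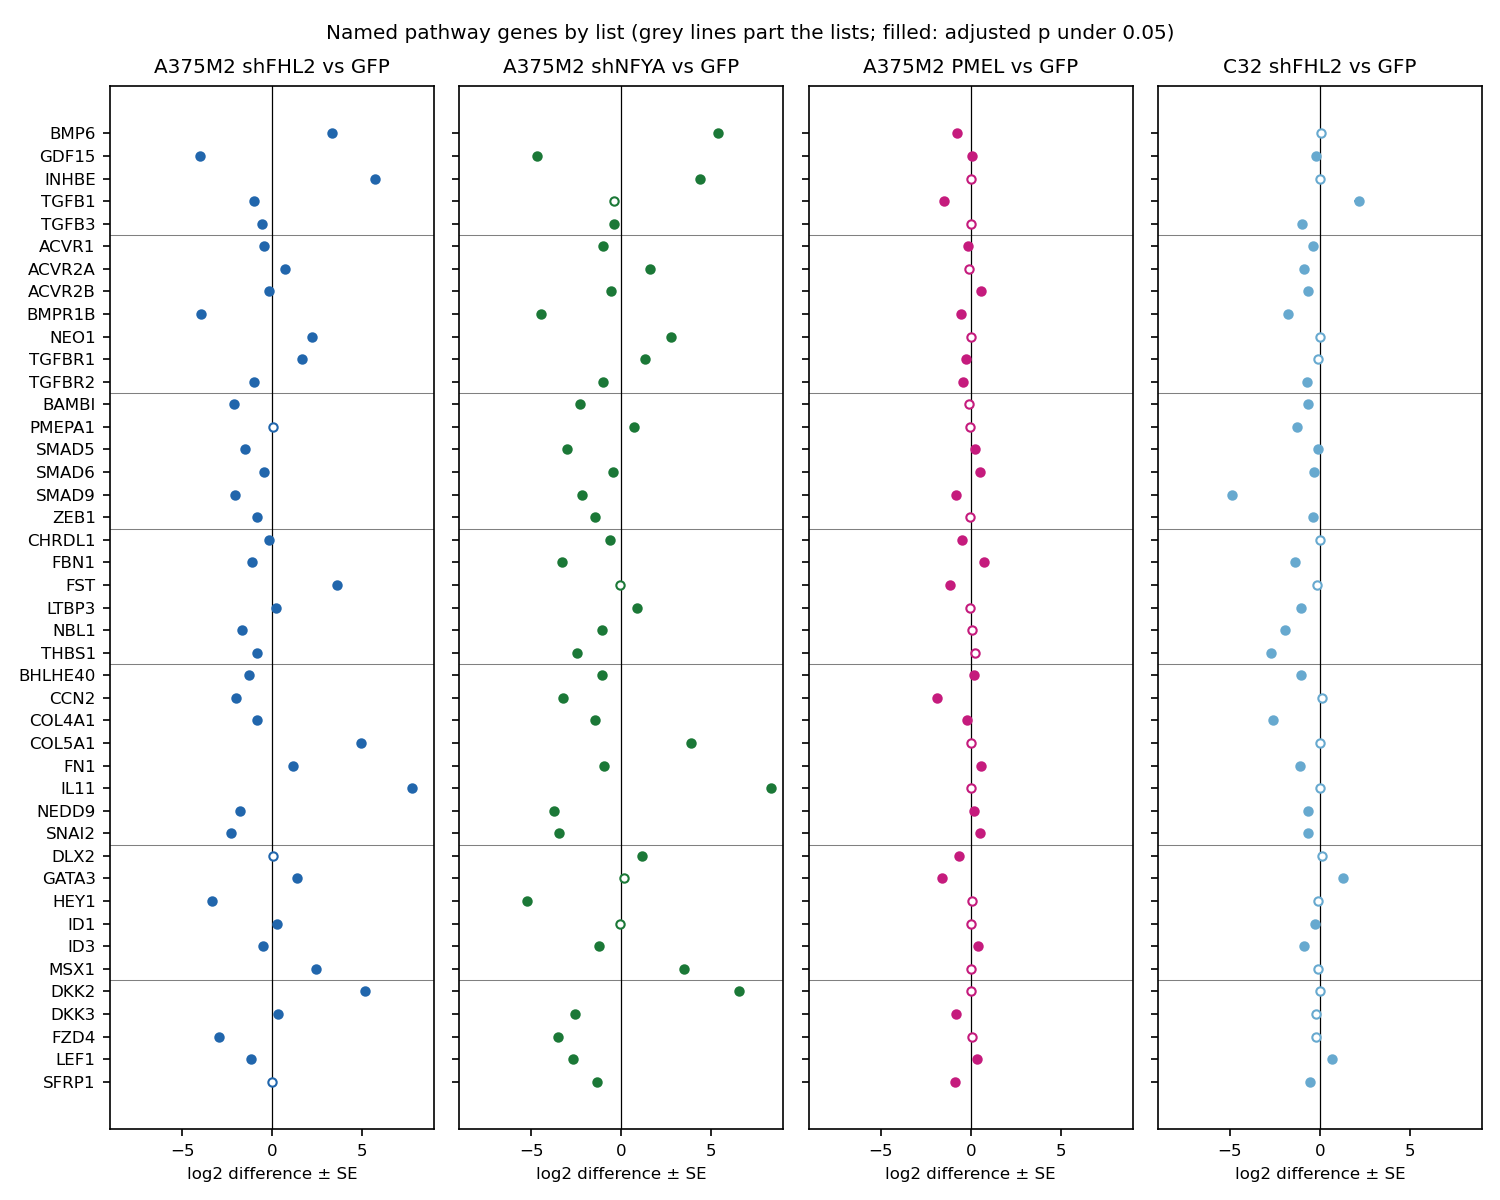
Log2 difference from the GFP arrays of the same line with its SE (horizontal axis; most SE bars are hidden by the points) for 43 named pathway genes (rows), in 4 comparisons (panels); filled points passed limma's test and grey lines part the lists. IL11 (7.78 and 8.31) lies farthest to the right in both A375M2 shRNA arms, FST lies to the right in shFHL2 (3.59) and to the left with PMEL (-1.17), and SMAD9 lies farthest to the left in C32 shFHL2 (-4.91).

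The genes whose levels followed each member most closely over the 17 arrays were taken by Pearson correlation; the arrays fall into 2 lines and share their groups, so the values describe a pattern only. For INHBA they were ATAD1 (r = 0.9998), CTAG2 (0.9995) and EMB (0.9994), all high in A375M2 and at 2.86 or less in C32; ATAD1 had group means of 12.72, 12.55, 13.05 and 12.81 in A375M2 GFP, PMEL, shFHL2 and shNFYA. For TGFB2 they were CARD16 (0.9945), TRIM63 (0.9944) and PMP2 (0.9889). CARD16 had its group means in the order of TGFB2 at 228121_at, apart from the A375M2 shRNA arms, which overlapped at TGFB2. Its means were 7.48 in A375M2 GFP, 5.73 in PMEL, 2.28 in shFHL2, 2.20 in shNFYA, 7.90 in C32 GFP and 5.10 in C32 shFHL2. For TGFBI they were EBF3 (0.9978), HEATR1 (0.9969) and CPSF3 (0.9954). For BMP2 they were MED17 (0.9975), EPHX4 (0.9974) and HAPLN1 (0.9972), of which HAPLN1 had the widest range, from 10.27 in A375M2 GFP to 13.77 in shNFYA and 2.28 in C32 GFP. For FSTL1 the nearest gene was GREB1 (0.9865; 8.89 in A375M2 GFP, 6.01 in shFHL2 and 3.16 in C32 shFHL2), followed at a distance by BCAS3 (0.9655) and PRCP (0.9616). For FSTL5 they were TMEM106C (0.9789), TMEM165 (0.9729) and CBFB (0.9707), and for WNT5A DDX21 (0.9906), MCTS1 (0.9901) and NOL10 (0.9885). TMEM106C spanned 10.72 to 12.28 and DDX21 12.96 to 14.12, much narrower ranges than FSTL5 (2.05 to 9.85) and WNT5A (5.07 to 12.08).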

How the data were processed

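The deposited table holds log2 signals from GCRMA, the tool the submitters' processing notes name without a version; the values as deposited run from 0.53 to 16.72 with 0 missing, and each of the 18 columns carries the identifier of its sample. Array number and signal over the lowest readings limit precision, and the table has no read depth. Probe sets were named through the platform annotation and Entrez gene ID (20254 of 20264 with a single symbol; 995 with several symbols, 2099 with none and 58 controls were left out). A probe set entered when 3 or more of the 17 arrays reached log2 4 (833 did not), and the brightest probe set on average stood for its gene, for 10918 genes.

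A model of 6 group means over 17 arrays (without C32 GFP replicate 3; 11 residual degrees of freedom) was estimated in limma 3.58.1 under R 4.3.3, using lmFit and a trended eBayes. Adjustment was by Benjamini-Hochberg over all genes of a comparison, with calls under 0.05. The procedure was tested on simulated data. The comparisons were shFHL2, PMEL and shNFYA with GFP in A375M2, shFHL2 with GFP in C32, the GFP arrays of the lines, the difference of the shFHL2 effects, and shFHL2 with shNFYA. The 7 genes and all lists were chosen with earlier results of these data known. Named genes are the 7 genes; FHL2, PMEL and NFYA; in each list and comparison the 2 called genes with the smallest adjusted p; and for each of the 7 genes the 3 genes with the highest correlation over the 17 arrays. Genes outside the tested set, such as list members without a probe set of their own, were not analysed here. Of 20 pairs of same-numbered replicates, 0 had deviations correlated over 0.1 (from -0.999 to 0.08). The -0.999 is replicate 3 of A375M2 GFP with replicate 3 of PMEL, the linked arrays described above. Of 40 pairs with different numbers, 6 were over 0.1, up to 0.545 for A375M2 GFP replicate 3 with PMEL replicate 1. The A375M2 GFP and PMEL arrays are thus not all independent, which their p-values do not allow for. Alternatives changed the filter, floor, scaling, choice of probe set, variance model, threshold or array weights, added a replicate block, or left arrays out. Upstream sequences were taken from RefSeq (GRCh38.p14); figures used matplotlib 3.10.9 and Python 3.11.15.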

Additional observations from a re-analysis of the deposited data

Results flagged for a closer look

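Several pathway genes had an shFHL2 difference in C32 that differed from that in A375M2 by the test of the difference itself (limma, adjusted over all genes; called for 42.1% of genes higher and 38.1% lower). The difference in C32 minus that in A375M2 was 3.77 for GDF15, 1.41 for BAMBI, 1.35 for SMAD5 (0.39 as the mean of its probe sets), 3.23 for HEY1 and 1.89 for LEF1. It was -5.71 for INHBE, -1.75 for TGFBR1, -2.21 for NEO1, -3.76 for FST, -1.28 for LTBP3, -7.78 for IL11, -2.26 for FN1, -2.55 for MSX1 and -5.16 for DKK2. INHBE, IL11 and DKK2 were at the lowest readings in both C32 groups (2.20 to 2.21). IL11 was -4.98 as the mean of its probe sets, and with values under log2 4 set to 4 INHBE was -3.92 and DKK2 -3.36.

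For FSTL5, and for INHBA at 227140_at, every C32 shFHL2 array lay on one side of every C32 GFP array. Every A375M2 shFHL2 array lay on the other side of the A375M2 GFP arrays. At INHBA, array 1 of C32 GFP and array 2 of C32 shFHL2 both read 2.15, so the C32 groups part only beyond the printed digits. The FSTL5 difference of -1.73 in A375M2 was -0.15 with values under log2 4 set to 4. No test of the difference of the shFHL2 effects is given, since the genes were selected on these data. The value was 5.79 for FSTL5 and -0.77 for INHBA, at probe set 227140_at. The C32 readings of INHBA all lie under log2 4, and its C32 difference was -0.34 there, -0.03 without array 2 of C32 GFP, -0.05 at 204926_at and 0.03 at 210511_s_at, where the C32 groups overlapped.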

How the results depend on the processing

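Counts of called genes, in all and in the pathway lists, stayed within 1.5 times of the reported count under every alternative run other than a 2-fold minimum. With that minimum the genes called were 3426 in A375M2 shFHL2, 234 in PMEL, 3909 in shNFYA, 921 in C32 shFHL2, 4699 between the GFP arrays of the lines, 3704 for the difference of the shFHL2 effects and 1135 between the A375M2 shRNA arms; the pathway genes were 43, 6, 53, 17, 45 and 29 in the same order, without the comparison of the lines. A fold minimum leaves fewer genes by construction. Of 1568 counts of single lists, 42 moved by over 1.5 times, and 49 of 1470 member values moved by more than the replicate SD, with the larger moves given above. With all 18 arrays the counts of pathway genes were 88, 62, 87, 72, 92, 82 and 80, against 88, 60, 87, 67, 89, 78 and 79 as reported; without replicate 3 of A375M2 GFP and PMEL together they were 84, 47, 86, 66, 87, 73 and 79. With the replicate block they were 87, 57, 87, 64, 87, 72 and 76, and the replicate block called 9257, 4099, 9447, 6425, 9196, 8576 and 7560 genes in all. The labels do not say that a replicate number marks a shared experiment. Leaving out single arrays gave 54 to 61 pathway genes in PMEL and 58 to 70 in C32 shFHL2. Of 2939 values of named pathway genes under the alternatives, 0 reversed and 3 lost their call: SMAD5 with PMEL (0.04), and FN1 with PMEL and between the shRNA arms (0 in both), all through the choice of probe set. Of the 1470 member values, 8 had the other sign, none of them called as reported (0): TGFBI against GFP in A375M2, and TGFB2 and WNT5A between the shRNA arms. Under some alternatives the fit did not make 15 of its member calls. With values under log2 4 set to 4, these were FSTL5 in A375M2 and FSTL1 in the shFHL2 difference of C32 minus that of A375M2. INHBA with PMEL was not called under quantile normalization (-0.36). BMP2 with PMEL was not called under median centring (0.18), without replicate 3 of both arms (0.23), or without GFP array 1 or 3 or PMEL array 2 or 3 (0.15 to 0.21). INHBA in C32 shFHL2 was not called with the spread of those groups alone or as the mean of its probe sets (-0.12). Nor was it called with values under log2 4 set to 4 (0) or without C32 GFP array 2 (-0.03). Readings under log2 4 and the number of arrays limit these values.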
